A study of Mus musculus with 12 samples.

Results

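The chemokines Ccl1, Ccl3, Ccl4, Ccl5, Ccl9 and Xcl1 were followed in cytotoxic T lymphocytes (CTL), CD8+ T cells grown to effector stage in interleukin-2 (IL-2). Every probe set annotated to 1 of these genes was taken, which gave 7 probe sets for the 6 genes, out of 18193 genes with a probe set of their own; Ccl9 has 2 probe sets and each other gene has 1. RNA was hybridized to 12 Affymetrix mouse arrays, 3 for each of 4 groups. PDK1 null CTL were grown from splenocytes of C57BL/6 mice with floxed alleles of Pdpk1 (PDK1fl/fl), the gene for the kinase PDK1, and a tamoxifen-activated Cre recombinase expressed from the ROSA26 locus (TamoxCre), and received 4-hydroxytamoxifen (4OHT). Cre control CTL carried the same Cre without floxed alleles and also received 4OHT, at 0.6 μM for the last 72 hr in both groups. The other experiment used CTL of 3 wild type C57BL/6 mice, grown with AktI-1/2 (AktI), an inhibitor of the kinase Akt, at 1 μM for the last 48 hr, with a further portion of each mouse's cells kept in IL-2 alone (wild type). All cells were activated for 48 hr with a CD3 antibody and then cultured for 5 days in 20 ng/ml IL-2. The ages of the mice are not given in the sources used here.

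Chemokines are small secreted proteins that guide leukocytes by binding to receptors coupled to G proteins. CTL make several of them after they meet antigen, and some are stored for rapid release. Ccl3 and Ccl4 (the macrophage inflammatory proteins 1α and 1β) and Ccl5 (RANTES) draw T cells, monocytes and natural killer cells; Ccl5 is known as a product of effector and memory CD8+ T cells. Xcl1 (lymphotactin) draws the dendritic cells that carry its receptor Xcr1. Ccl1 acts through the receptor Ccr8, and Ccl9 is a mouse chemokine that acts through Ccr1.

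In the mouse genome build GRCm38.p6, 5 of the 6 genes lie on chromosome 11 and Xcl1 lies on chromosome 1. Ccl1 spans chr11:82176666-82179812, Ccl5 chr11:83525778-83530518, Ccl9 chr11:83572917-83578636, Ccl3 chr11:83647843-83649378 and Ccl4 chr11:83648624-83664683, so that the RefSeq models of Ccl3 and Ccl4 overlap. Xcl1 spans chr1:164931644-164935522. Promoters of 4 of the 6 genes were matched in RefSeq by gene symbol (Ccl1, Ccl3, Ccl9 and Xcl1). The 250 bases upstream of Ccl3 (chr11:83649379-83649628, minus strand), a gene that fell with AktI, and of Xcl1 (chr1:164935523-164935772, minus strand), a gene with clear signal in the same arrays that did not pass a test, are printed 5′ to 3′, with matches to GGAAA, the core letters of sites for NFAT factors, on either strand (TTTCC where the match is on the reverse strand) and to the T-box letters GGTGTGA in capitals.
Ccl3: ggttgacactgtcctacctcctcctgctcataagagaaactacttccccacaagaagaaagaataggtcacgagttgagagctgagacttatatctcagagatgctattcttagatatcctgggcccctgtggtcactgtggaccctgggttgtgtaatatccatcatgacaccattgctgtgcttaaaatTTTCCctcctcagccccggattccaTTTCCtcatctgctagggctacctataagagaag
Xcl1: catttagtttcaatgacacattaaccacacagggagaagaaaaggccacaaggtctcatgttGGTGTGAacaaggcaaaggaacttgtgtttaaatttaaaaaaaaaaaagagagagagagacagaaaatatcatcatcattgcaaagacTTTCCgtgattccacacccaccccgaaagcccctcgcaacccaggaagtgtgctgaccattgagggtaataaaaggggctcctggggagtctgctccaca
The Ccl3 sequence lies inside the span of the Ccl4 model. It held 2 GGAAA matches, at 59 to 55 and 34 to 30 bases before the start. The Xcl1 sequence held 1 GGAAA match, 100 to 96 bases before the start, and 1 GGTGTGA match, 188 to 182 bases before it. GGAAA was found in 55.6% and GGTGTGA in 3.33% of 32851 mouse promoters of that length. Neither sequence held the letters of an AP-1 site (TGANTCA, in 6.75% of promoters), a forkhead site (GTAAACA, in 3.17%), an NF-κB site (GGANTTTCC, in 1.07%, whose reverse strand holds GGAAA) or a TATA box (TATAAA, in 12.4%). The upstream sequence of Ccl1 held 3 GGAAA matches. That of Ccl9 held 2, with 1 AP-1 match and 3 TATA box matches. These matches are of letters only and say nothing of binding.

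Values are log2 signals as the authors normalized them. The array medians differ between the experiments, which were therefore taken as normalized separately, so that a level was set against the background of its own experiment and not against the other. The background level was the 95th percentile of the mean signals of 80 probe sets for olfactory and vomeronasal receptors, genes with no known role in T cells, and stood at 4.45 in the PDK1 experiment and 4.99 in the Akt experiment. Array medians lay between 4.61 and 4.63 in the PDK1 experiment and between 5.10 and 5.14 in the Akt experiment, and arrays of the same group correlated across probe sets at r of 0.996 to 0.998. Of 10 measured T cell marker genes, 9 were above background in all 4 groups, and Trac, a T cell receptor gene, was not. The 2 probe sets of Pdpk1 read 8.67 to 9.09 in PDK1 null CTL and 8.69 to 9.03 in Cre control CTL. Whether they lie in the floxed part is not given in the sources used here, so they do not check the labels.

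A gene's RNA stood above background in some groups and not in others. Ccl4 and Ccl5 were above background in all 4 groups. Xcl1 was above background in AktI-treated and wild type CTL and below it in PDK1 null and Cre control CTL. Ccl3 was above background in wild type CTL alone, by 0.67 on the log2 scale. Ccl1 was 0.10 and 0.09 above background in PDK1 null and Cre control CTL and below background in AktI-treated and wild type CTL. Both Ccl9 probe sets were below background in every group.

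**Figure D1:**
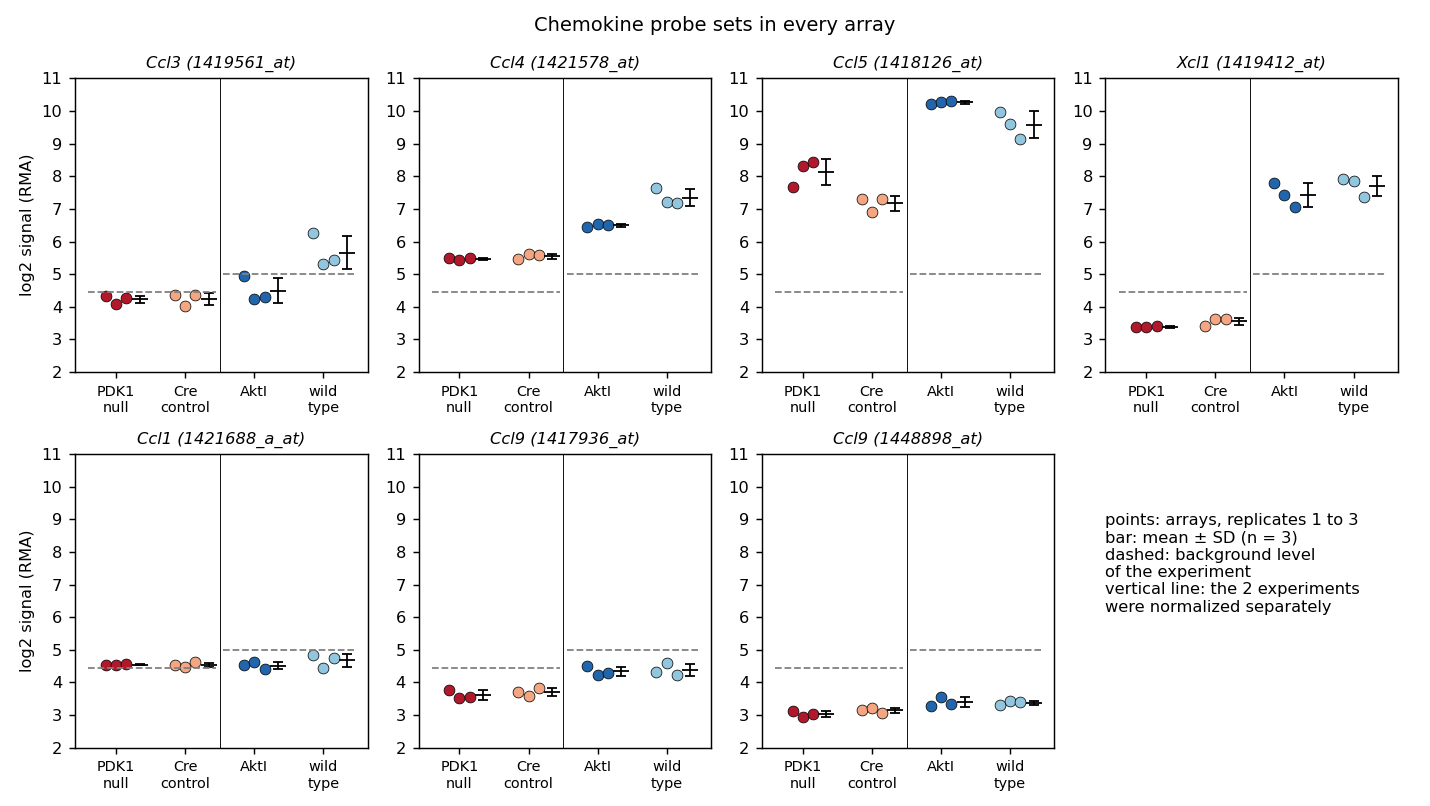
Log2 signal (y axis) of the 7 chemokine probe sets in each of the 12 arrays, by group (x axis), with group means ± SD (n = 3) and the background level of each experiment as a dashed line. Ccl4 and Ccl5 lie above the dashed line in all groups, Xcl1 lies above it only in the Akt experiment, and the 2 Ccl9 probe sets lie below it throughout.

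The first comparison asked which chemokine genes changed when CTL lost PDK1. Ccl5 was the gene of the 6 that rose in PDK1 null CTL, 1.97-fold, and none fell. A change counted as passed at an adjusted p under 0.05 by limma, adjusted over all 45037 probe sets, and at least 1.5-fold. By that rule 1 of the 7 probe sets was higher and 0 were lower, where 0.737% of all probe sets were higher and 0.282% were lower.

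Ccl5 read 7.68, 8.32 and 8.42 in PDK1 null CTL, against 7.31, 6.89 and 7.30 in Cre control CTL. Every PDK1 null array was above every Cre control array, with PDK1 null replicate 1 the nearest to the controls. The means were 8.14 ± 0.40 in PDK1 null CTL and 7.17 ± 0.24 in Cre control CTL (SD, n = 3 each), 3.70 and 2.72 above background. The log2 fold change was 0.98 (SE 0.20, 95% interval 0.53 to 1.42), with a limma adjusted p of 0.0499, just inside the threshold. Arrays of bulk RNA cannot tell more cells that make Ccl5 from more Ccl5 RNA per cell. The call was lost when PDK1 null replicate 2 or 3 was left out (limma adjusted p = 0.0936 and 0.151), when Cre control replicate 1, 2 or 3 was left out (0.111, 0.168 and 0.132) and after quantile normalization (0.0510). Without PDK1 null replicate 1 it held, at a log2 fold change of 1.21 and a limma adjusted p of 0.0135.

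Ccl4 read 5.50, 5.44 and 5.49 in PDK1 null CTL, against 5.47, 5.61 and 5.57 in Cre control CTL. These values overlap, and the log2 fold change of −0.08 had a 95% interval of −0.23 to 0.08 (limma adjusted p = 0.680). Ccl1, close to the background level, read 4.53, 4.53 and 4.56 in PDK1 null CTL and 4.54, 4.47 and 4.61 in Cre control CTL (log2 fold change 0.01, 95% interval −0.15 to 0.16, limma adjusted p = 0.983).

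Ccl3, Xcl1 and Ccl9 gave only values below background in this experiment. Ccl3 read 4.32, 4.10 and 4.26 in PDK1 null CTL and 4.35, 4.04 and 4.35 in Cre control CTL. Xcl1 read 3.37 to 3.42 in PDK1 null CTL and 3.42 to 3.62 in Cre control CTL, with means 1.05 and 0.89 on the log2 scale below the background level. The Ccl9 probe sets read 2.95 to 3.78 in PDK1 null CTL and 3.07 to 3.84 in Cre control CTL. None of these 4 probe sets passed (limma adjusted p = 0.384 to 0.968), and at this signal a fall could not be read.

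The second comparison asked which chemokine genes changed when Akt was inhibited in wild type CTL. Ccl3 and Ccl4, the pair of neighboring genes for the macrophage inflammatory proteins, fell with AktI, and none of the 6 genes passed as higher. Of the 7 probe sets, 2 were lower and 0 were higher, where 0.739% of all probe sets were lower and 1.20% were higher.

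Ccl4 read 6.45, 6.53 and 6.51 in AktI-treated CTL, against 7.65, 7.22 and 7.18 in wild type CTL. The AktI arrays lay close together and below all wild type arrays. The means were 6.50 ± 0.04 in AktI-treated CTL and 7.35 ± 0.26 in wild type CTL (SD, n = 3 each), so that Ccl4 stood 1.5 above background with AktI, against 2.36 in IL-2 alone. The log2 fold change was −0.85, or 1.81-fold lower (SE 0.12, 95% interval −1.13 to −0.58, limma adjusted p = 0.00528). Ccl4 passed with each of the 6 arrays left out in turn.

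Ccl3 read 4.93, 4.24 and 4.29 in AktI-treated CTL, against 6.25, 5.30 and 5.42 in wild type CTL. The groups do not overlap, all AktI arrays are below the background level, and wild type replicate 1 is the highest array. The means were 4.49 ± 0.39 in AktI-treated CTL and 5.66 ± 0.52 in wild type CTL (SD, n = 3 each). The measured log2 fold change was −1.17 (SE 0.26, 95% interval −1.77 to −0.58, limma adjusted p = 0.0391). With the AktI mean set to the background level, Ccl3 was at least 1.59-fold lower. Against the 99th percentile of the receptor probe sets (5.92), the wild type mean was also below background and no bound could be given. The Ccl3 call was lost without wild type replicate 1 or 3 (limma adjusted p = 0.0715 and 0.0672) and without AktI replicate 2 or 3 (0.131 and 0.121).

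Ccl5 read 10.23, 10.27 and 10.30 in AktI-treated CTL, against 9.97, 9.60 and 9.15 in wild type CTL. All AktI arrays were above all wild type arrays, and the AktI arrays were the closer together. The means were 10.3 ± 0.04 in AktI-treated CTL and 9.57 ± 0.41 in wild type CTL (SD, n = 3 each), and the log2 fold change of 0.69 (SE 0.17, 95% interval 0.29 to 1.09) did not pass, at a limma adjusted p of 0.0622. It passed without wild type replicate 1 (log2 fold change 0.89, limma adjusted p = 0.0154) and when dim probe sets were left out before the adjustment (0.0377).

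Xcl1, the chemokine for cross-presenting dendritic cells, read 7.80, 7.43 and 7.07 in AktI-treated CTL, against 7.93, 7.86 and 7.36 in wild type CTL. The groups overlap, and both were well above background, by 2.44 with AktI and 2.72 in IL-2 alone. The log2 fold change was −0.28 (SE 0.20, 95% interval −0.73 to 0.17, limma adjusted p = 0.538), an interval that holds both no change and a fall of more than 1.5-fold. Ccl1 read 4.40 to 4.62 in AktI-treated CTL and 4.44 to 4.83 in wild type CTL, all below background (limma adjusted p = 0.517). The Ccl9 probe sets read 3.27 to 4.50 with AktI and 3.31 to 4.60 in IL-2 alone, also below background (limma adjusted p = 0.913 and 0.976).

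**Figure D2:**
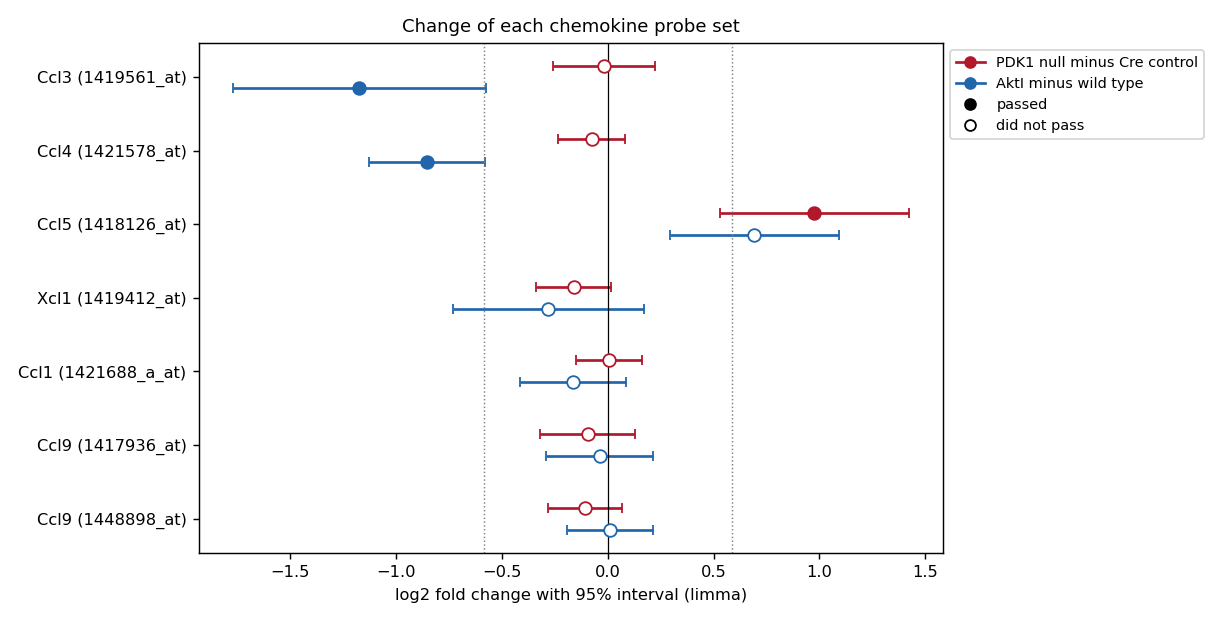
Log2 fold change with its 95% interval (x axis) for each chemokine probe set (y axis), for PDK1 null minus Cre control (red) and AktI minus wild type (blue), with filled points for changes that passed and dotted lines at 1.5-fold. Ccl5 passed in the first comparison at 0.98, and Ccl3 and Ccl4 passed in the second at −1.17 and −0.85.

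AktI-treated and wild type CTL of the same number came from the same mouse, so each mouse gave its own difference. All 3 AktI values of Ccl3 were below background, so that against the background level Ccl3 was at least 2.40-fold lower with AktI in mouse 1, at least 1.24-fold lower in mouse 2 and at least 1.35-fold lower in mouse 3. Ccl4 was 2.29-fold, 1.61-fold and 1.59-fold lower in the same mice, with the widest gap in mouse 1. Ccl5 was 1.19-fold, 1.59-fold and 2.22-fold higher with AktI in these mice, with mouse 1 the least changed. Xcl1 was lower in all 3 mice, by 0.13, 0.43 and 0.29 on the log2 scale. Over all probe sets, 20.9% were lower and 18.6% were higher in all 3 mice, so agreement in sign alone is common. With the mouse as a block, Ccl3 and Ccl4 again passed (limma adjusted p = 0.00119 and 0.0134) and Ccl5 and Xcl1 again did not (0.0739 and 0.129).

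**Figure D3:**
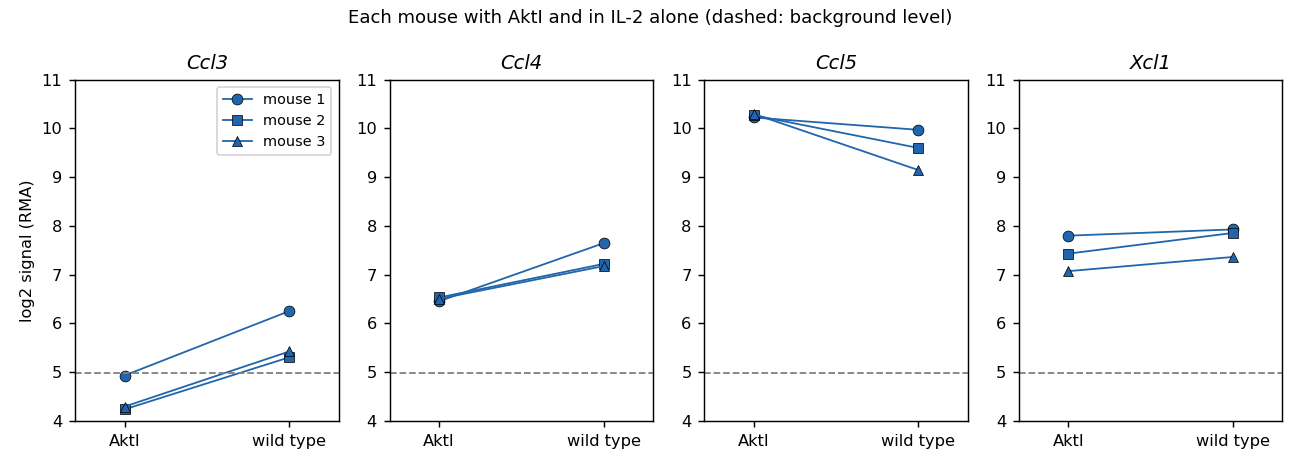
Log2 signal (y axis) of Ccl3, Ccl4, Ccl5 and Xcl1 in AktI-treated and wild type CTL (x axis), with a line for each of the 3 mice and the background level dashed. The lines for Ccl3 and Ccl4 lie lower at AktI in all 3 mice, those for Ccl5 lie higher at AktI by 0.25 to 1.15, and those for Xcl1 differ by 0.13 to 0.43.

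Whether the effect of PDK1 loss differed from that of Akt inhibition was tested as the difference of the log2 fold changes. It passed for Ccl4 alone. Of the 7 probe sets, 1 was higher (a less negative effect of PDK1 loss) and 0 were lower, where 0.229% of all probe sets were higher and 0.167% were lower. Ccl4 stood 1.03 and 1.11 above background in PDK1 null and Cre control CTL, against 2.36 in wild type CTL. A fall therefore had less room in the PDK1 experiment. The 2 effects come from separate experiments, so the kinase cannot be told apart from the experiment, 4OHT and the length of exposure. For Ccl4 the effect was −0.08 for PDK1 null against Cre control and −0.85 for AktI against wild type, a difference of 0.78 (SE 0.15, 95% interval 0.46 to 1.09, limma adjusted p = 0.0348). The call was lost with the replicate number as a block (limma adjusted p = 0.0835) and without any 1 of the 9 PDK1 null, Cre control and AktI arrays (limma adjusted p = 0.0595 to 0.0970); it held without wild type replicate 1, 2 or 3 (0.0153, 0.0429 and 0.0262). For Ccl3 the difference was 1.16 (SE 0.32, limma adjusted p = 0.173, and 0.00268 with the replicate block), but Ccl3 was below background in both groups of the PDK1 experiment, where a fall could not be read. For Ccl5 the effects of 0.98 and 0.69 had the same sign and their difference was 0.28 (SE 0.29, 95% interval −0.35 to 0.91, limma adjusted p = 0.808). The rise of Ccl5 was therefore not shown to differ between PDK1 loss and AktI, though it passed only in the first. The differences for Ccl1, Xcl1 and Ccl9 did not pass (limma adjusted p = 0.735 to 0.946).

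**Figure D4:**
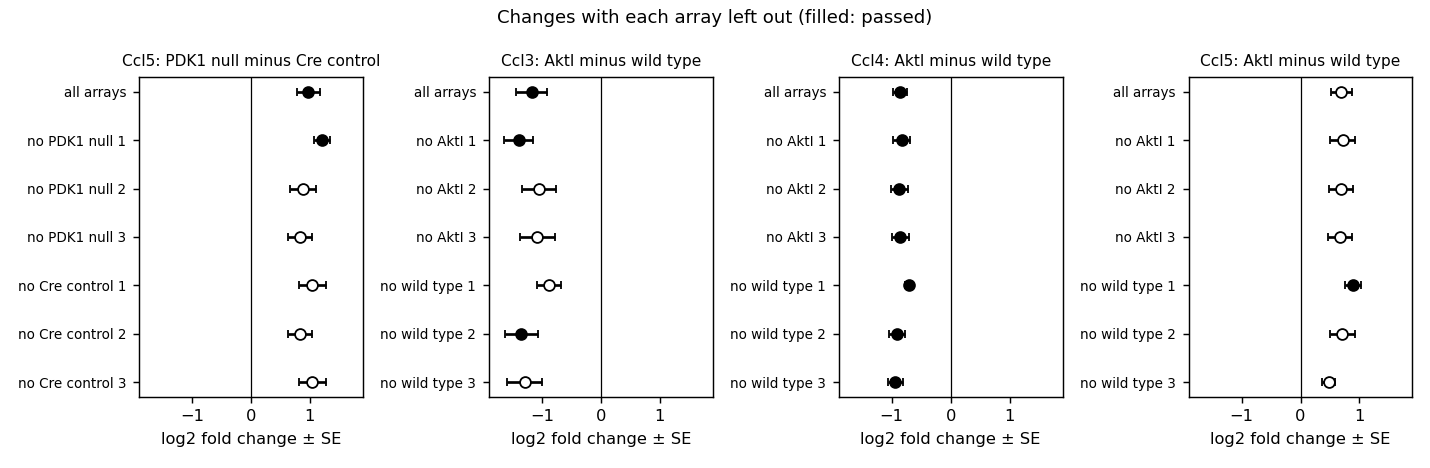
Log2 fold change ± SE (x axis) with all arrays and with each array left out in turn (y axis), filled where the change passed, for Ccl5 in PDK1 null minus Cre control and for Ccl3, Ccl4 and Ccl5 in AktI minus wild type. The sign stays the same in every row, Ccl4 passes in every row, and Ccl5 in the PDK1 comparison ranges from 0.84 to 1.21.

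CTL chemokines can also come from other cells of a splenocyte culture. In the Akt experiment, the mean signal of 11 macrophage and monocyte genes was 4.60 to 4.68 in AktI arrays and 4.81 to 4.87 in wild type arrays, with 3 of the 11 above background in each group. One of the 3, Cd68, a lysosomal protein typical of macrophages, read 6.01, 5.82 and 6.21 in AktI-treated CTL and 7.77, 7.12 and 7.04 in wild type CTL (log2 fold change −1.30, limma adjusted p = 0.00563). The mean of 7 basophil and mast cell genes was 4.03 to 4.09 in AktI arrays and 4.09 to 4.34 in wild type arrays. Mcpt8, a basophil protease, read 4.77, 4.46 and 5.38 with AktI and 5.70, 5.74 and 6.43 in IL-2 alone (limma adjusted p = 0.0465). Its AktI mean was below background, and with AktI arrays below that level set to it, Mcpt8 was at least 1.78-fold lower. The macrophage genes not above background in AktI-treated and wild type CTL were Adgre1, Cd14, Lyz2, Itgam, Ms4a7, C1qa, C1qb and Mrc1. Of the 7 basophil and mast cell genes, 1 was above background with AktI and 2 in IL-2 alone. Fcer1a, Ms4a2, Cpa3, Il4 and Cd200r3 were not above it in either group. The mean of 6 neutrophil genes was 4.19 to 4.27 in AktI arrays and 4.27 to 4.43 in wild type arrays, and none of them passed. Among these, Camp and Ltf were above background in wild type CTL, and none was with AktI. The mean of 5 natural killer cell genes was 7.53 to 7.64 in AktI arrays and 7.59 to 7.67 in wild type arrays. Of these, 3 were above background in each group, and none passed. The T cell list read 10.97 to 11.04 in AktI arrays and 11.18 to 11.36 in wild type arrays, without overlap. The 1 gene of this list that was lower was Prf1, the perforin gene. The median log2 fold change of the T cell list was −0.05, beside −0.02 over all genes. Cd68 and Mcpt8 RNA moved with Ccl3 and Ccl4, and each was the 1 gene of its list that passed. At an unadjusted limma p under 0.05, 1 basophil and mast cell gene was lower and 1 was higher. At that threshold 3 macrophage genes were lower and 0 higher, and the share of all probe sets was not counted. The median log2 fold change was −0.10 for the macrophage list and −0.05 for the basophil list, beside −0.02 over all genes. The part of any of these lists in the falls was not tested. In the PDK1 experiment, where Ccl5 rose, the macrophage list read 4.43 to 4.51 in PDK1 null and 4.43 to 4.46 in Cre control arrays. The basophil list read 4.45 to 4.61 and 4.38 to 4.60. Of the macrophage genes, 6 were above background in PDK1 null CTL and 5 in Cre control CTL. Of the basophil genes, 4 were above it in each group. Mcpt8 read 6.71, 7.77 and 7.64 in PDK1 null CTL and 6.94, 7.80 and 6.98 in Cre control CTL. Without overlap, the neutrophil list read 4.06 to 4.11 in PDK1 null arrays and 3.96 to 4.04 in Cre control arrays. Its genes Camp and Ltf were above background in both groups. The T cell list read 10.61 to 10.70 in PDK1 null arrays and 10.71 to 10.80 in Cre control arrays, also without overlap. The natural killer cell list read 6.73 to 6.78 in PDK1 null arrays and 6.64 to 6.85 in Cre control arrays, with 3 genes above background in each group. None of the genes on these lists passed in this comparison, and their part in the rise of Ccl5 was not tested.

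Other chemokine genes did not pass in either comparison. Of 33 listed, 29 were measured by 46 probe sets, and 12 were above background in a group of the PDK1 experiment and 11 in a group of the Akt experiment. None was lower or higher by limma in PDK1 null or AktI-treated CTL. At an unadjusted p under 0.05 there were 1 lower and 1 higher in PDK1 null CTL, and 1 lower and 2 higher in AktI-treated CTL. The share of all probe sets at that threshold was not counted, so these counts are not read as a result. Their median log2 fold change was 0.05 in PDK1 null CTL and −0.05 in AktI-treated CTL, beside −0.01 and −0.02 over all genes.

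The receptors that bind the 6 chemokines were measured by 8 probe sets for 5 genes, and none passed. Ccr8, the receptor for Ccl1, read 5.18, 4.19 and 4.59 in PDK1 null CTL, against 5.97, 5.76 and 5.50 in Cre control CTL. The groups do not overlap, and the log2 fold change of −1.08 (SE 0.23) had a limma adjusted p of 0.0591. Ccr8 was below background in both groups of the Akt experiment (means 4.19 with AktI and 4.44 in IL-2 alone). Ccr1, a receptor for Ccl3, Ccl5 and Ccl9, averaged 5.21 in PDK1 null CTL and 4.88 in Cre control CTL (limma adjusted p = 0.359) by the brighter of its probe sets. By that probe set it was below background in the Akt experiment, and its dimmer probe set was below background in every array. Ackr2, a decoy receptor that removes inflammatory chemokines, was read by the brightest of its probe sets. It averaged 4.99 in PDK1 null CTL and 5.07 in Cre control CTL, and 5.21 with AktI and 5.43 in IL-2 alone (limma adjusted p = 0.729 and 0.257). The other Ackr2 probe sets were below background in every array. Ccr3, a receptor for Ccl5, and Xcr1, the receptor for Xcl1, were below background in all groups.

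Of 18 transcription factors known to act on chemokine genes in T cells, 17 were measured. Irf4, an effector T cell factor, rose in both comparisons. It averaged 8.57 in PDK1 null CTL and 7.73 in Cre control CTL, a log2 fold change of 0.84 (limma adjusted p = 0.0169). It averaged 10.7 with AktI and 9.44 in IL-2 alone, a log2 fold change of 1.26 (limma adjusted p = 0.000164). Thus 1 of the 17 was higher in PDK1 null CTL, where 0.737% of all probe sets were higher. With AktI, 1 was higher and 2 fell, where 1.20% of all probe sets were higher and 0.739% were lower. Egr1, an early gene induced by receptor signals, averaged 6.39 with AktI and 7.72 in IL-2 alone, a log2 fold change of −1.33 (limma adjusted p = 0.000538). Prdm1, the gene for the effector repressor Blimp-1, averaged 6.56 with AktI and 7.26 in IL-2 alone, a log2 fold change of −0.70 (limma adjusted p = 0.00104). No listed factor fell in PDK1 null CTL. Klf13, known as a factor for Ccl5 in T cells, had log2 fold changes of 0.33 in PDK1 null CTL (limma adjusted p = 0.0779) and 0.46 with AktI (0.00708), both short of 1.5-fold; it was picked out after its values were seen. The list's median log2 fold change was 0.06 in PDK1 null CTL and 0.02 with AktI, beside −0.01 and −0.02 over all genes.

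Among 11 cytokines and effector proteins that CTL release beside chemokines, none passed in PDK1 null CTL, where 0.282% of all probe sets were lower and 0.737% higher, and 3 fell with AktI, where 0.739% of all probe sets were lower. Ifng, the gene for interferon-γ, read 6.91, 6.54 and 6.67 in AktI-treated CTL, against 8.96, 8.47 and 9.01 in wild type CTL, 4.30-fold lower (limma adjusted p = 0.000211). Prf1, the gene for the pore-forming protein perforin, averaged 9.95 with AktI and 12.1 in IL-2 alone, 4.61-fold lower (limma adjusted p = 0.000164). Fasl, the gene for the death ligand FasL, averaged 10.9 with AktI and 11.7 in IL-2 alone, 1.73-fold lower (limma adjusted p = 0.00149). In PDK1 null CTL Ifng read 6.56, 8.04 and 6.41, against 7.54, 8.31 and 8.01 in Cre control CTL, and the log2 fold change of −0.95 did not pass (limma adjusted p = 0.301). The median log2 fold change of the 11 genes was −0.34 with AktI and −0.02 in PDK1 null CTL, beside −0.02 and −0.01 over all genes.

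The genes with the pattern most like each chemokine were sought among 11447 genes above background in a group of each experiment, by Pearson's r over the 12 arrays after subtraction of each experiment's mean. These values are descriptions, and the genes named depend on the centering: with each group's mean subtracted instead, 1 of the 18 named genes (Nodal, for Ccl1) was named again. The arrays share groups, and AktI and wild type arrays share mice. Ccl3 and Ccl4 had an r of 0.89 with each other, and 0.60 after subtraction of group means. Within the experiments the latter was 0.69 in the Akt and −0.30 in the PDK1 experiment, where Ccl3 was below background in every array. Nearest to Ccl3 were Etv3 (r = 0.96), Ddx58 (r = 0.95) and Flad1 (r = 0.95), and nearest to Ccl4 were Pigl (r = 0.96), Cdk9 (r = 0.96) and Mgat5 (r = 0.96). Of these 6 genes, Mgat5, a glycosyltransferase, was the one that passed, with a log2 fold change of −1.04 with AktI.

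Nearest to Ccl5 were Brd1 (r = 0.95), Cxcr4 (r = 0.93) and Xpc (r = 0.93). Cxcr4, itself a chemokine receptor, passed in both comparisons, at a log2 fold change of 0.99 in PDK1 null CTL and 0.88 with AktI. Nearest to Xcl1 were Pptc7 (r = 0.89), Eci2 (r = 0.87) and Kdm5c (r = 0.87), and to Ccl1 Nodal (r = 0.95), Aifm3 (r = 0.89) and N4bp3 (r = 0.89). Ccl9, below background throughout, had the lowest values, with Ufsp1 (r = 0.84), Adprhl2 (r = 0.82) and Smpd4 (r = 0.80). None of these 9 genes near Xcl1, Ccl1 and Ccl9 passed in either comparison.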

How the data were processed

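The authors deposited log2 signals of Affymetrix mouse genome arrays, normalized by robust multichip averaging (software: Affymetrix Expression Console 1.1), and these were used unchanged. The method pulls arrays to a common distribution, so levels are relative within an experiment. The median signals differ between the experiments, which were taken as normalized separately. Of 45101 probe sets, 64 controls were left out and 45037 tested. Of these, 34945 name 1 gene, 932 several and 9160 none in the platform annotation, and 34741 symbols were updated through RefSeq gene identifiers. Differences were fitted in R 4.3.3 with limma 3.58.1 (lmFit and eBayes), each comparison on its own 6 arrays without covariates. The difference of the effects came from a model of 4 group means on 12 arrays. Tests were two-sided, with Benjamini-Hochberg adjustment across every tested probe set. The study's SAM test was not rerun. The fitting was tested on simulated data.

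Per the labels, arrays of a group are biological replicates, and AktI and wild type cells of a number share a mouse. Deviations from group means correlated at 0.03 to 0.17 between AktI and wild type arrays of the same mouse and at −0.10 to 0.04 otherwise. With 3 arrays per group, their number limits precision, and an exact permutation test cannot go below p = 0.1. A list's gene is represented by its brightest probe set. Every chemokine probe set and each measured receptor gene was named. From each other list, the genes that passed (at most the 4 largest) and Ifng were named. Klf13, picked after its values were seen, and cell type markers that did not pass were named besides. For each chemokine, the 3 genes of most similar pattern were named. The genes and lists were chosen with earlier results of these data known. Alternatives were a replicate block, trended and robust variance, quantile normalization, a common median, no dim probe sets, other fold minimums, 1 model over 12 arrays, the mean of a gene's probe sets and each array left out.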

Additional observations from a re-analysis of the deposited data

Results flagged for a closer look

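The effects of PDK1 deletion and of AktI on Ccl4 differed by a test of the difference itself, by 0.78 on the log2 scale (PDK1 null minus Cre control against AktI minus wild type, SE 0.15, limma adjusted p = 0.0348). The call was lost with the replicate number, which marks shared mice in the Akt experiment, as a block (0.0835) and in 9 of 12 fits that left out 1 array. Groups of 3 arrays are too small for a test of single outlying arrays. Ccl4 was nearer to background in the PDK1 experiment. The effects come from separate experiments, so kinase and experiment cannot be told apart.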

How the results depend on the processing

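Precision was limited by 3 arrays per group and, for Ccl3 with AktI, by signal near background. In PDK1 null CTL the number of the 6 genes higher was 1, and 0 with the replicate block (Ccl5, limma adjusted p = 0.0775), after quantile normalization and at a 2-fold minimum, with 0 to 1 when 1 array was left out. In the PDK1 experiment the labels name no shared mouse for a number. Same-numbered PDK1 null and Cre control arrays correlated at −0.01 to 0.05 and the others at −0.07 to 0.04. Same-mouse arrays of the Akt experiment went as low as 0.03, so these values cannot settle whether the numbers pair arrays. With AktI the number lower was 2, and 1 at a 2-fold minimum (1 to 2 without 1 array); the number higher was 0, and 1 (Ccl5) without dim probe sets or with the mean of a gene's probe sets (0 to 1 without 1 array). The difference of the effects was higher for 1 gene, for 0 at a 2-fold minimum and for 0 to 1 without 1 array; with the replicate block it was 1, Ccl3 in place of Ccl4. The replicate block changed no other call. Leaving out 1 array turned the sign only of changes that had not passed, in PDK1 null CTL for Ccl3 (−0.12 to 0.048) and Ccl1 (−0.030 to 0.043), with AktI for Ccl9 (−0.12 to 0.071 and −0.078 to 0.071), and in the difference for Ccl9 (−0.17 to 0.022) and Xcl1 (−0.060 to 0.30). With background set at the median of the receptor probe sets, all 6 genes were above it in each experiment, against 3 in the PDK1 and 4 in the Akt experiment; at their 99th percentile 2 and 3 were, with Ccl3 below it in all groups.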

Other observations

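Levels of the 2 experiments cannot be compared directly, since experiment, genotype, 4OHT and normalization cannot be told apart, but the shift of each probe set can be set beside that of all probe sets. The median probe set read 0.55 higher in wild type CTL than in Cre control CTL. Of the chemokine genes above background in both groups, Ccl5 read 2.40 higher, the 103rd largest shift of 45037 probe sets, and Ccl4 read 1.80 higher, the 478th. Xcl1 was 2.72 above background in wild type CTL and below background in Cre control CTL, so the size of its shift is not given. Each of these is a value without a test.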
